A study of Mus musculus with 33 samples.

Results

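The Schlafen genes form a cluster of closely related immune genes, and 7 of them (Slfn1, Slfn2, Slfn3, Slfn4, Slfn5, Slfn8 and Slfn9) were followed in kidneys of lupus-prone mice after delivery of interferon-alpha. The genes were chosen by their symbols: every probe set annotated with a single Schlafen symbol was taken, which gave 9 probe sets for 7 genes, of 45037 probe sets and 17097 named genes in all. Slfn3 and Slfn5 had more than 1 probe set each, and the one with the highest mean level over the 33 arrays represented the gene. Since 30 of the 33 arrays came from treated mice, this choice can favour a probe set that rises after treatment, so the dimmer probe sets of Slfn3 and Slfn5 are described as well. The family was singled out because the high level of Slfn4 in treated kidneys was already known, so the values of Slfn4 are given as a description with no test, and the other 6 genes were tested.

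All mice were NZB X NZW F1 (BWF1), a cross that develops lupus nephritis, and each array measured whole kidney RNA of a single mouse. The untreated group held 3 mice, and 5 mice each were collected 1, 2, 3, 5, 7 and 9 weeks after an adenovirus carrying IFNα (Adv-IFNα). The methods of the study describe young adult females injected intravenously, while the labels give neither sex nor age, nor the collection week of the untreated mice. No group given an empty adenovirus was among the arrays, so effects of the vector, of IFNα and of the age at collection cannot be told apart. The methods describe a pair of longitudinal experiments, and the labels do not say which mouse came from which.

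Schlafen genes are found in mammals and are known as genes that type I interferon can induce. They encode proteins of 3 size groups. Slfn1 and Slfn2 encode short proteins, Slfn3 and Slfn4 intermediate ones, and Slfn5, Slfn8 and Slfn9 long ones with a helicase-like region. Slfn1 was described in thymocytes as a regulator of growth, Slfn2 is required to keep T cells and monocytes quiescent and alive, and Slfn4 is best known from macrophages and other myeloid cells. Type I interferon acts through the receptor chains Ifnar1 and Ifnar2, and many of its target genes carry the interferon-stimulated response element (ISRE) in their promoters.

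In RefSeq's gene order (GRCm38.p6) the 7 genes lie together on chromosome 11, in the order Slfn5, Slfn9, Slfn8, Slfn2, Slfn1, Slfn4, Slfn3. Promoter windows of 300 bases, from 250 bases before to 50 bases after an annotated start, were given for all 7 genes, with 2 overlapping windows for Slfn8. The ISRE core was searched as GAAANNGAAA on both strands. It was found in the windows of the long members Slfn5, Slfn8 and Slfn9, and these letters were not in the windows of Slfn1, Slfn2, Slfn3 and Slfn4. Of all 27025 genes with windows, 3.99% held it, and of the 32851 windows 3.44% did. Slfn1, Slfn2 and Slfn4, which carry most of the changes described here, lacked these letters. So did Slfn3, in which no change was called, and inexact matches were not searched. The stretches that hold the match are shown. Each is written 5′ to 3′ on the strand of its gene, with the match in capitals (TTTC first where it lies on the opposite strand).
Slfn5, chr11:82951932-82951971, plus strand: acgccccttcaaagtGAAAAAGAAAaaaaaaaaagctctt
Slfn9, chr11:82991851-82991890, minus strand: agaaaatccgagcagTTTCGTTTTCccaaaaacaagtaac
Slfn8, chr11:83020834-83020873, minus strand: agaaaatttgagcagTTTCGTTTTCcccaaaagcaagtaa

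The match began 155 bases before the start of Slfn5, 45 bases before that of Slfn9 and 48 bases before that of Slfn8 (136 bases from its other start). The Slfn8 and Slfn9 stretches are nearly alike, and the whole windows of these genes were 80.8% identical over the aligned length, while the other 20 pairs of members ranged from 46.5% to 53.0%. The gamma-activated site, searched as TTCNNNGAA, had no match in any member's window, and 8.30% of all windows held it. A match is a description of letters in a window, and a missing match says nothing about the factor.

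Slfn4 stood highest above its untreated level of all members. In log2 RMA intensity, where 1 unit is a 2-fold step, the untreated kidneys gave 4.51, 3.16 and 2.59 for Slfn4. At week 1 the 5 kidneys gave 7.36, 7.17, 7.25, 7.07 and 7.17, a narrow group (SD 0.11). All 30 treated kidneys lay above all 3 untreated kidneys, from the first week to the last. Over all probe sets, 1.00% were called higher than untreated at week 1 and 6.41% at week 9 (limma, adjusted p under 0.05), which is given as background only, since Slfn4 was chosen for this difference. The mean difference from untreated was 3.78 ± 0.61 (SE) at week 1, on the log2 scale. The mean untreated level of Slfn4 lay below the array medians, where changes are compressed, so no fold is given.

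The spread of Slfn4 between mice widened with time after injection. At week 5 its levels were 8.41, 6.27, 6.10, 8.60 and 7.91, so that 3 kidneys were above every week 1 kidney and the other 2 were below every one. At week 7 they were 9.54, 8.99, 7.79, 7.38 and 8.99, all above week 1. At week 9 they were 6.15, 5.59, 8.39, 9.07 and 8.57, again split, with 3 kidneys above week 1 and 2 below it. The SD was 1.19, 0.91 and 1.57 at weeks 5, 7 and 9. The differences from untreated were 3.06 at week 2, 3.60 at week 3, 4.04 at week 5, 5.11 at week 7 and 4.13 at week 9, on the log2 scale. Against week 1 the mean was 1.33 ± 0.53 higher at week 7 and 0.35 ± 0.53 higher at week 9, and this last difference changed sign when week 9 replicate 4 was left out (−0.03). Because a single variance was shared by all groups, the standard errors are too small for the late weeks of Slfn4 and too large for week 1.

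**Figure D1:**
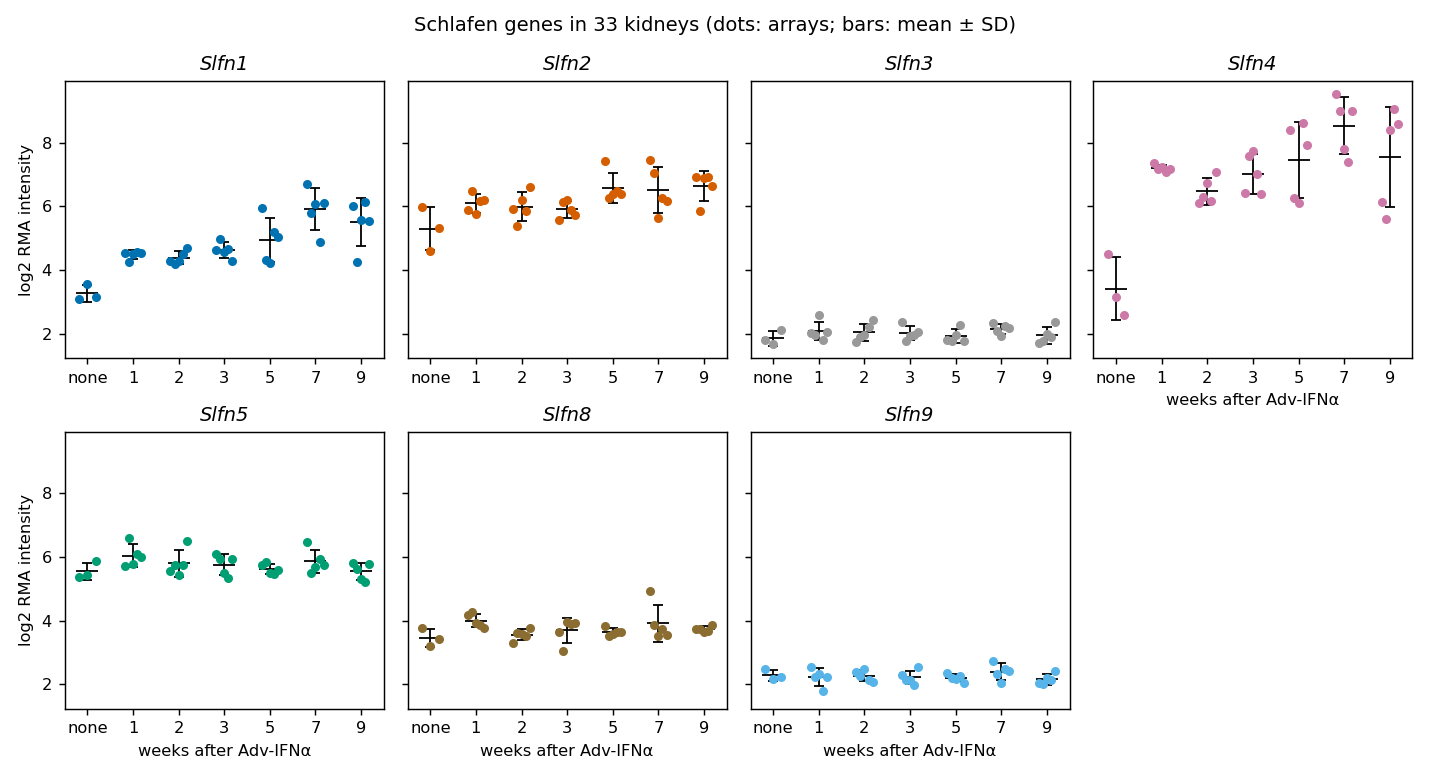
Level of each Schlafen gene (log2 RMA intensity) in untreated kidneys (none, n = 3) and 1 to 9 weeks after Adv-IFNα (n = 5 each), with a dot per array and black bars for mean ± SD; levels are comparable between groups within a panel, not between panels. Slfn1 and Slfn4 lie above untreated in all 30 treated kidneys, and Slfn4 spreads from SD 0.11 at week 1 to 1.57 at week 9.

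Slfn1 was called higher than untreated from week 3 on, with differences at weeks 1 and 2 close to that of week 3. It climbed further late in the course. Its untreated levels were 3.08, 3.57 and 3.17, and those at week 1 were 4.54, 4.25, 4.50, 4.58 and 4.54. At week 7 the levels were 6.70, 5.79, 6.09, 4.88 and 6.12, and at week 9 they were 6.01, 4.25, 5.56, 6.15 and 5.53. As for Slfn4, all 30 treated kidneys were above all untreated ones. The mean untreated level of Slfn1, 3.27, also lay below the array medians, where changes are compressed. At week 7 all 5 kidneys were above all week 1 kidneys, and at week 9 this held for 4 of 5, the other one (replicate 2) lying beside the lowest week 1 kidney.

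Against untreated kidneys, the Slfn1 difference on the log2 scale was 1.21 ± 0.34 (SE) at week 1 and 1.11 ± 0.34 at week 2, which did not pass the test (limma, Benjamini-Hochberg adjusted p = 0.060 and 0.086). It passed at week 3 (1.35, adjusted p = 0.031), week 5 (1.67, adjusted p = 0.0034), week 7 (2.64, adjusted p = 1.9e-06) and week 9 (2.23, adjusted p = 3.9e-05). The week 3 call was lost without any 1 of 6 arrays (untreated replicates 1 and 3 and week 3 replicates 1 to 4), with adjusted p from 0.051 to 0.12. The shared variance also covers unequal spread in Slfn1, with an SD of 0.14 at week 1 and 0.75 at week 9. Fitted with only the 2 compared groups, weeks 1 and 2 passed as well (limma adjusted p = 0.00082 and 0.0041). Within the treated mice, Slfn1 was higher than at week 1 by 1.43 ± 0.29 at week 7 (limma adjusted p = 0.00076) and by 1.02 ± 0.29 at week 9 (limma adjusted p = 0.021). The week 9 rise over week 1 was not called without week 1 replicate 2, week 9 replicate 1 or week 9 replicate 4 (limma adjusted p = 0.054, 0.083 and 0.085).

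Slfn2 was higher in late kidneys than in untreated ones, with groups that overlapped. The untreated kidneys were themselves spread, at 5.97, 4.61 and 5.33. At week 5 the Slfn2 levels were 7.42, 6.26, 6.38, 6.48 and 6.40. At week 7 they were 7.45, 7.04, 5.63, 6.26 and 6.17. At week 9 they were 6.91, 5.85, 6.89, 6.92 and 6.63. All 5 kidneys at week 5, and 4 of 5 at weeks 7 and 9, were above all untreated kidneys.

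The Slfn2 difference from untreated passed the test at week 5 (1.28 ± 0.32, limma adjusted p = 0.023), week 7 (1.20, adjusted p = 0.0096) and week 9 (1.33, adjusted p = 0.0057). At weeks 1, 2 and 3 it was 0.79, 0.69 and 0.60 and did not pass (limma adjusted p = 0.26, 0.32 and 0.42). All 3 calls rested on untreated replicate 2, the kidney with the lowest Slfn2 level: without it the differences were 0.94, 0.85 and 0.98, and none passed (limma adjusted p = 0.13, 0.11 and 0.061). The week 5 call was also lost without untreated replicate 3 or week 5 replicate 1 (limma adjusted p = 0.079 and 0.077). Against week 1, Slfn2 did not pass the test in any week, and its differences ran from −0.19 at week 3 to 0.54 at week 9 (limma adjusted p from 0.26 to 0.97).

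The short and intermediate members are read against changes in the tissue's cells. The macrophage list (13 measured genes, among them the macrophage surface marker Adgre1 and the IgG receptor gene Fcgr1) had 1 gene higher than untreated at week 1, 12 at week 7 and 12 at week 9. Its mean level ran from 4.19 to 4.24 in untreated kidneys, 4.68 to 4.82 at week 1, 5.40 to 6.53 at week 7 and 5.36 to 6.91 at week 9. The inflammatory monocyte list (8 measured genes) had 1 gene higher than untreated at week 1, Plac8, and 5 at week 9, led by Plac8 (2.63, limma adjusted p = 5.5e-07) and the chemokine receptor gene Ccr2 (2.22, limma adjusted p = 3.0e-04). Its mean level ran from 3.85 to 3.91 in untreated kidneys and 4.51 to 5.18 at week 9. In whole kidney RNA, more cells of a type and more RNA per cell cannot be told apart, and the part of these cells in the Schlafen values was not tested.

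Lists of other cells moved less or in part. The T cell list had 0 of 12 genes higher than untreated at week 1 and 4 at week 9 (Cd3g, Thy1, Cd2 and Cd3d), with mean levels from 3.57 to 3.80 in untreated kidneys and 3.91 to 4.43 at week 9. Of 12 neutrophil genes, Lcn2, which injured tubules also express, was higher at week 9 and S100a8 was lower, with the list's mean level from 2.59 to 2.67 in untreated kidneys and 2.62 to 3.01 at week 9. Of 5 dendritic cell genes, 2 (Itgax and Zbtb46) were higher at each of weeks 5, 7 and 9, and of 5 plasma cell genes 2 (Jchain and Xbp1) were higher at week 7 and 1 (Jchain) at week 9. Of 7 natural killer cell genes, the granzyme genes Gzma and Gzmb were higher at weeks 3 and 5 and Gzma at week 7. At week 9, 0 of 8 B cell genes and 0 of 7 natural killer cell genes were higher by limma (1 each at an unadjusted p under 0.05). Of 3 erythroid genes Alas2 was higher and Slc4a1 lower at week 9. Against week 1, Hba-a1 was higher by 2.83, 3.61, 3.08 and 3.40 at weeks 2, 3, 5 and 9 (limma adjusted p from 9.9e-05 to 0.026). The mean level of the erythroid list ran from 5.39 to 5.88 at week 1 and from 4.42 to 7.23 at week 7. The part of blood in the Schlafen values was not tested.

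Defining genes of the labelled tissue were bright on the arrays, with mean levels in untreated kidneys of 9.74 for the proximal tubule list, 8.19 for the loop and distal nephron list and 7.82 for the podocyte list. At week 7, when the mean levels of Slfn1 and Slfn4 were highest, 3 of 4 proximal tubule genes were lower than untreated (Slc5a2, Cubn and Aqp1, median of the list −0.65) and 4 of 4 were lower than at week 1. At week 9, 1 of 4 was lower than untreated (Slc5a2, a glucose transporter). Of 8 loop and distal nephron genes, 3 (Pvalb, Calb1 and Slc12a3) were lower than untreated at weeks 7 and 9, and Umod was higher at week 9. The part of these changes in the Schlafen values was not tested. Of 6 endothelial genes Kdr was lower at weeks 7 and 9. Of 4 podocyte genes Nphs1 was lower at week 7, and 0 passed in either direction at week 9 by limma (0 at an unadjusted p under 0.05). Genes named for weeks 2 to 7 in these lists were named after their values were seen.

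Slfn5, a long member, gave different answers on its 2 probe sets. On the brighter one the untreated levels were 5.36, 5.44 and 5.86, and the treated levels of weeks 1 to 9 ran from 5.22 to 6.60, overlapping them in every week. Its differences from untreated ran from −0.01 at week 9 to 0.49 at week 1, and none passed the test (limma adjusted p = 0.32 at week 1 and 0.99 at week 9). On the dimmer probe set the untreated kidneys ran from 4.69 to 5.31 and the week 2 kidneys from 5.36 to 5.90, with no overlap. That probe set was higher than untreated at week 2 (0.76 ± 0.19, limma adjusted p = 0.032) and week 7 (0.79 ± 0.19, adjusted p = 0.0039), and higher at week 7 than at week 1 (0.57 ± 0.16, adjusted p = 0.015). With both probe sets averaged, 3 rather than 2 of the 6 tested genes were higher than untreated at week 7.

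Slfn8 and Slfn9, long members whose promoter windows hold the ISRE core, and Slfn3 passed the test in no comparison. Slfn8 was 3.77, 3.20 and 3.43 in untreated kidneys and 4.18, 4.27, 3.91, 3.88 and 3.77 at week 1. The lowest week 1 kidney (3.774) was nearly level with the highest untreated one (3.767), and the other week 1 kidneys lay above it. The week 1 difference was 0.53 on the log2 scale, and differences from untreated over the 6 weeks ran from 0.10 to 0.53 (limma adjusted p from 0.15 to 0.89). Slfn9 differed from untreated by −0.13 to 0.11 (limma adjusted p from 0.61 to 0.96) and Slfn3 by 0.06 to 0.29 (limma adjusted p from 0.26 to 0.90). These members were dim. Their mean level stood at the 45.8th percentile of all probe sets for Slfn8, 20.6th for Slfn9 and 15.5th for Slfn3, and changes of dim probe sets are compressed on arrays. The dimmer Slfn3 probe set, at the 6.29th percentile, differed from untreated by −0.13 to 0.34. The brighter Slfn3 probe set carries a suffix that the array's maker gives to probe sets that can match several transcripts, and cross-hybridisation between family members was not tested.

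**Figure D2:**
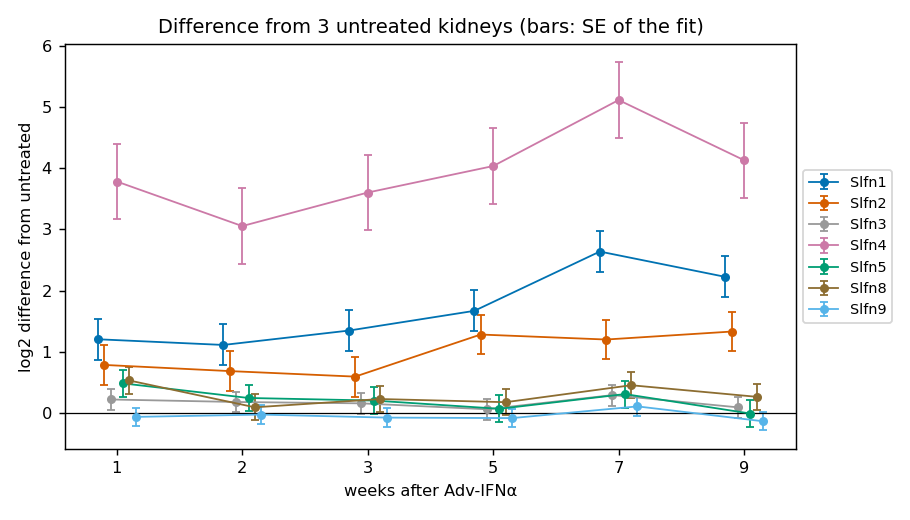
Log2 difference of each Schlafen gene from the 3 untreated kidneys (vertical axis) at 1 to 9 weeks after Adv-IFNα (horizontal axis), with the standard error of the fit as bars. Only the brightest probe set of each gene is drawn. Slfn4 lies between 3.06 and 5.11 throughout, and Slfn1 goes from 1.21 to 2.64 at week 7. Slfn3, Slfn5, Slfn8 and Slfn9 stay between −0.13 and 0.53. The dimmer Slfn5 probe set, not drawn, was higher by 0.76 at week 2 and 0.79 at week 7.

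Counted over the 6 tested genes, 0 were higher than untreated at week 1, where 1.00% of all probe sets were, and 0 at week 2, where 0.877% were. At week 3 it was 1 gene, Slfn1, beside 1.07% of all probe sets. At weeks 5, 7 and 9 it was 2 genes, Slfn1 and Slfn2, beside 1.85%, 9.85% and 6.41%. Against week 1, Slfn1 alone was higher at weeks 7 and 9, where 9.46% and 4.64% of probe sets were, and 0 of 6 genes were higher at weeks 2, 3 and 5, where 0.0600%, 0.0400% and 0.486% were. At an unadjusted limma p under 0.05, 4 genes (Slfn1, Slfn2, Slfn5 and Slfn8) were higher than untreated at week 1 and 2 (Slfn1 and Slfn2) at week 2, and 0 were higher than at week 1 at weeks 2, 3 and 5. None of the 6 was called lower in any of the 11 comparisons by limma. The share of all probe sets called lower is not given here, so this count is a description only. At an unadjusted p under 0.05, 1 gene was lower than at week 1 in each of 3 weeks, Slfn8 at week 2 and Slfn5 at weeks 5 and 9. The median difference from untreated over the 6 genes was 0.51 at week 1 and 0.18 at week 9, against −0.03 and −0.06 over all probe sets. The comparisons with untreated share the same 3 kidneys, and those with week 1 the same 5.

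Most interferon-stimulated genes were higher than untreated in every week, and some of them fell by week 9. Of 45 listed genes 38 were measured, and none of them is a Schlafen gene. At week 1, 35 were higher than untreated (median difference 2.42). At week 7 it was 37 (median difference 2.32), and against week 1 none was called higher there and 1, Irf7, was lower (limma; 4 and 5 at an unadjusted p under 0.05, median −0.16). At week 9, 34 were higher and 1, Ifi44l, lower (median difference 1.70). Ifi44l is named because it was the single gene that went the other way, after its value was seen. Ifit1, which encodes a protein that binds viral RNA, was higher by 5.00 at week 1 and 3.26 at week 9 (limma adjusted p = 8.8e-10 and 4.0e-06), and Irf7, which encodes a transcription factor of the interferon response, was higher by 4.36 at week 1 (adjusted p = 5.2e-09). From week 1 to week 9, 15 of 38 fell and 0 rose by limma (22 and 0 at an unadjusted p under 0.05), with Irf7 lower by 1.92 (limma adjusted p = 3.8e-04) and Ifit1 lower by 1.74 (adjusted p = 0.0015). Of 13 genes of the receptor, its kinases and feedback, 3 were higher than untreated at week 1 (Usp18, Stat2 and Irf9), and all 3 also stand in the interferon-stimulated list. These and Irf8 were the 4 higher at weeks 5 and 9, and with Irf1 they were the 5 higher at week 7. Usp18 encodes a brake on the receptor, and was higher by 3.86 at week 1 and 2.48 at week 9 (limma adjusted p = 3.9e-09 and 1.5e-05).

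Set against that list within each kidney, Slfn1 moved apart from it. The level of Slfn1 minus the mean of the 38 genes, in log2 units, was 1.52 ± 0.19 (SE, 5 kidneys a group) higher at week 7 than at week 1 and 1.68 ± 0.21 higher at week 9 (exact permutation test, two-sided, p = 0.0079, the smallest that 5 against 5 allows, and adjusted p = 0.032 over 12 tests, for both weeks). For Slfn2 the same quantity was 1.21 ± 0.18 higher at week 9 (exact adjusted p = 0.032) and 0.51 ± 0.22 higher at week 7 (exact adjusted p = 0.16). For Slfn4, given without a test, it was 1.42 ± 0.19 higher at week 7 and 1.01 ± 0.51 at week 9. For Slfn3, Slfn5, Slfn8 and Slfn9 it ran from −0.08 to 0.59, and none passed (exact adjusted p from 0.12 to 0.95).

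**Figure D3:**
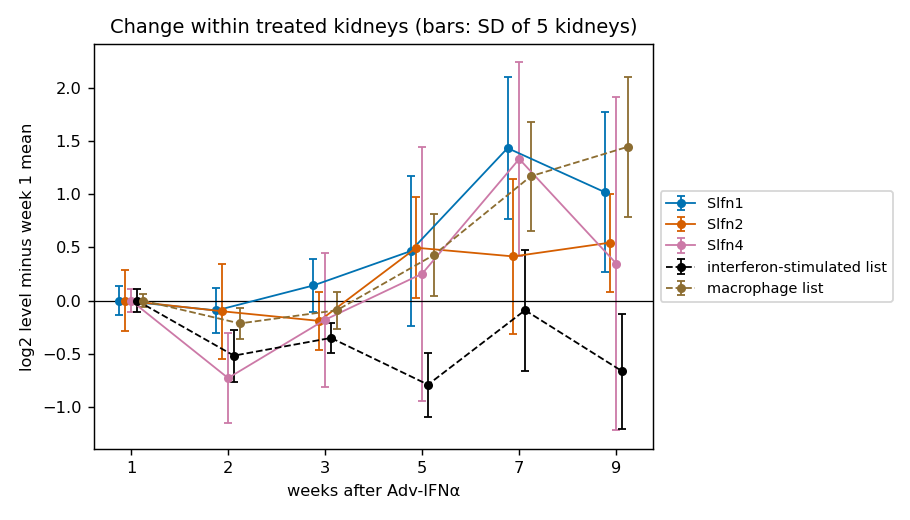
Mean log2 level minus the week 1 mean (vertical axis) for Slfn1, Slfn2, Slfn4, the mean of 38 interferon-stimulated genes and the mean of 13 macrophage genes, by week after Adv-IFNα (horizontal axis), with the SD of 5 kidneys as bars. At weeks 7 and 9 Slfn1 is 1.43 and 1.02 above week 1, while the interferon-stimulated mean, 7.81 at week 1, is 7.72 and 7.14.

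Slfn1 and Slfn2 varied together among mice of the same week by Pearson's r. Correlations were taken over the 30 treated kidneys after subtracting each week's mean, and the 15 pairs of the 6 tested genes got permutation p-values adjusted over these pairs. The permutations moved kidneys between weeks of unequal spread and ignored the subtracted means, so these p-values can be too small. Slfn1 and Slfn2 gave Pearson's r = 0.59 (permutation test, adjusted p = 0.0073), with Spearman's rho = 0.43 not passing (adjusted p = 0.13), and r = 0.52 without the 2 kidneys farthest from the median. None of the other 14 pairs passed (permutation test, adjusted p of r from 0.052 to 0.76). The closest was Slfn2 with Slfn8, at r = 0.48 and rho = 0.41 (permutation adjusted p = 0.052 and 0.13), and r = 0.25 without 2 kidneys. The 6 pairs with Slfn4 are a description with no test. Slfn1 and Slfn4 gave r = 0.70 and rho = 0.58, and r = 0.57 without 2 kidneys. Slfn2 and Slfn4 gave r = 0.59 and rho = 0.58, and r = 0.53 without 2 kidneys. With the other 4 members, Slfn4 gave r from −0.10 to 0.28. The SD of Slfn1 and Slfn4 is largest in weeks 5 to 9, so those weeks carry most of the relation.

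**Figure D4:**
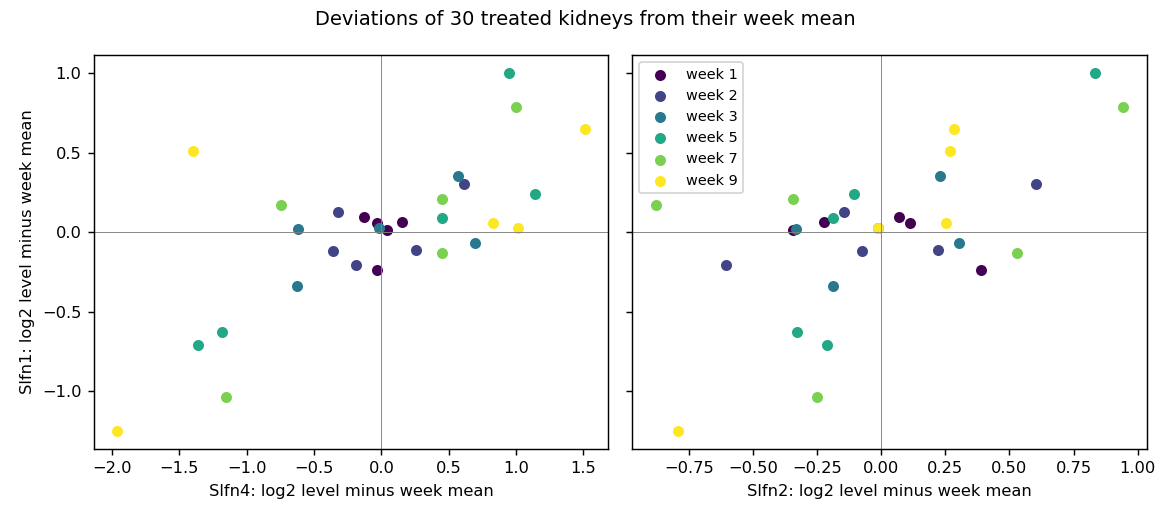
Deviation of Slfn1 from its week mean (vertical axis, log2 units) against that of Slfn4 (left) and Slfn2 (right) in 30 treated kidneys, with the collection week as colour. The points run upward in both panels (r = 0.70 and 0.59), and the kidneys farthest from 0 are of weeks 5, 7 and 9.

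The same deviations were set beside the lists as a description. Of the 15 list means, Slfn4 ran closest to the interferon-stimulated genes (r = 0.84, n = 30), then the receptor list (0.65) and the natural killer cell list (0.63). With the inflammatory monocyte, neutrophil and macrophage lists it gave 0.57, 0.52 and 0.44. It ran opposite to the dendritic cell list (−0.61) and the loop and distal nephron list (−0.58). Slfn1 ran closest to macrophages (0.77), the receptor list and the interferon-stimulated genes (0.74 each), and opposite to the loop and distal nephron list (−0.80) and the proximal tubule list (−0.75). By Spearman's rho macrophages stayed first for Slfn1 (0.67), followed by the T cell and inflammatory monocyte lists (0.54 each). The receptor list gave a rho of 0.53, the interferon-stimulated genes 0.48, the loop and distal nephron list −0.61 and the proximal tubule list −0.55. Slfn2 ran closest to the receptor list (0.76), natural killer cells (0.74) and the interferon-stimulated genes (0.72), with 0.52 for macrophages and −0.44 for the proximal tubule. These values share arrays and normalization, and the receptor and interferon-stimulated lists share Usp18, Stat2 and Irf9.

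The named genes whose levels over all 33 arrays were most like those of a member were given as a description, by Pearson's r. The gap between untreated and treated kidneys, for which Slfn4 was chosen, enters these values. For Slfn4 they were Ms4a4d (0.94), Ms4a4c (0.94), Oas3 (0.94), Plac8 (0.91) and Trim30d (0.91). Over the 30 treated arrays alone these genes gave 0.87, 0.87, 0.91, 0.80 and 0.78 with Slfn4, in the same order. For Slfn1 they were Casp4 (0.94), which encodes an inflammatory caspase, Ms4a6b (0.91), Ms4a4c (0.91), Ctss (0.90), a protease of antigen presentation, and Tmsb10 (0.90). For Slfn2 they were Fcer1g (0.86), which encodes the signalling chain of Fc receptors, Ms4a6c (0.82), Fcgr4 (0.80), Ms4a4c (0.78) and Ms4a6d (0.78). For Slfn8 they were Zfp867 (0.75), Gbp2b (0.74), Cxcl11 (0.71), Il18bp (0.71) and Gbp2 (0.68). The highest value was 0.73 for Slfn3, 0.65 for Slfn5 and 0.71 for Slfn9. Ms4a4c stands in the lists of Slfn1, Slfn2 and Slfn4.

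Other Schlafen symbols in the annotation were Slfn10-ps and Slfnl1, which are not among the 7 genes, and 2 probe sets that Slfn5os shares with Unc45b. Slfn10-ps had group means from 2.09 to 2.24 and Slfnl1 from 2.54 to 2.95. Slfn14 was not analysed here.

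The arrays were alike as a set. Array medians ran from 3.97 to 4.10 and correlations between arrays from 0.965 to 0.994, and no pair of arrays held identical values. The beta-actin 3′ minus 5′ difference, a sign of RNA length, was 1.57 ± 0.16 (SD, n = 3) in untreated and 1.95 ± 0.11 (SD, n = 30) in treated arrays, with 29 of 30 treated arrays above the highest untreated one, while that of Gapdh was 1.51 and 1.52. With the beta-actin difference as a covariate, which runs with treatment, the Slfn1 call at week 3 was lost (limma adjusted p = 0.25), as were those of Slfn1 and Slfn2 at week 5 (adjusted p = 0.065 and 0.057), and the calls at weeks 7 and 9 stood.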

How the data were processed

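Kidney RNA of 33 BWF1 mice was measured on HT-MG-430 PM plates, 1 array a mouse. The authors deposited RMA values in log2 units. RMA corrects background, equalises array distributions and summarises probes. The file does not state the base of the logarithm, and log2 was taken from the method and the range of 0.585 to 13.1. RMA and Partek stand in the submitters' processing notes without versions. No further normalization was applied. Probe annotation paired 28898 probe sets with 1 symbol, 551 with several and 15588 with none, after 104 control probe sets were left out.

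The 33 arrays entered 1 model with 7 group means (limma 3.58.1 in R 4.3.3, 26 residual degrees of freedom), with Benjamini-Hochberg adjustment over 45037 probe sets and a threshold of 0.05. The model was tested on simulated data. Replicates are separate mice. Arrays carry no counts, so their number limits precision. Exact tests used SciPy 1.17.1, and the 100000-permutation tests of correlations used NumPy 2.4.6. The text names every Schlafen gene, the 5 genes most correlated with a member, and up to 4 called genes a list with the largest change at week 1 or week 9. The 15 gene lists are described by counts and levels, without a set test, and genes with no probe set of 1 symbol were not analysed here. Members, lists and tests were chosen with earlier results of these data known.

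Promoter sequences are RefSeq's (GRCm38.p6), and 7 of 7 members matched by symbol. Alternatives were the 2 compared groups alone, array weights, a trended robust prior, no dim probe sets, averaged probe sets, median-centred arrays, the beta-actin covariate, the replicate block, exact tests, the median of the interferon-stimulated list, and leaving out each array.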

Additional observations from a re-analysis of the deposited data

Results flagged for a closer look

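In 42 groups of 5 kidneys (7 genes, 6 weeks), 4 kidneys stood apart from the other 4 of their group by Dixon's criterion, where the gap to the nearest kidney exceeds 0.71 of the group's range. Chance alone marks about 1 in 20 groups. For Slfn1 at week 1, replicate 2 was lowest at 4.25, with the others from 4.50 to 4.58. For Slfn2 at week 5, replicate 1 was highest at 7.42, with the others from 6.26 to 6.48. For Slfn2 at week 9, replicate 2 was lowest at 5.85, with the others from 6.63 to 6.92. For Slfn8 at week 7, replicate 1 was highest at 4.93, with the others from 3.52 to 3.87. The kidney of week 9 replicate 2 also had the lowest week 9 levels of Slfn1 (4.25) and Slfn4 (5.59), of the interferon-stimulated mean (6.28) and of the macrophage mean (5.36). Week 7 replicate 1 also had the highest week 7 levels of Slfn1 (6.70), Slfn2 (7.45) and Slfn4 (9.54) and of the interferon-stimulated mean (8.49).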

How the results depend on the processing

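The number of tested members higher than untreated changed as follows. With only the 2 compared groups it was 1 at weeks 1, 2, 5 and 7. Without dim probe sets it was 1 at week 1. With array weights it was 0 at week 3 and 1 at week 5. With the beta-actin covariate it was 0 at weeks 3 and 5. By the exact test it was 0 at weeks 3, 5, 7 and 9, and 0 at weeks 7 and 9 against week 1; the smallest p is 0.0357 for 3 against 5 arrays, and adjustment over all members and weeks left it at 0.161. Leaving out single arrays gave 0 to 1 at weeks 1 and 3, 1 to 2 at weeks 5, 7 and 9, and 0 to 1 at week 9 against week 1.

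Slfn1 minus the interferon-stimulated mean ran from 1.38 to 1.61 at week 7 and 1.54 to 1.80 at week 9 without single arrays, and Slfn2 from 1.12 to 1.33 at week 9. None of these passed there (exact adjusted p = 0.0635). With 4 against 5 arrays the smallest possible exact p is larger than with the full groups. Members without a call changed sign near 0. For the same quantity, without single arrays, Slfn3 ran from −0.032 to 0.31, Slfn5 from −0.27 to 0.048 and Slfn8 from −0.11 to 0.15 at week 7, and Slfn5 from −0.066 to 0.36 at week 9. It was 0.29 for Slfn5 at week 7 with the averaged probe sets and −0.020 for Slfn8 at week 7 with the beta-actin covariate.

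Differences from untreated with the beta-actin covariate were −0.016 for Slfn8 at week 2, −0.038 for Slfn3 and −0.034 for Slfn5 at week 5, −0.13 for Slfn9 at week 7 and −0.050 for Slfn3 at week 9, and those from week 1 were 0.010 and 0.016 for Slfn9 at weeks 3 and 5. With array weights Slfn9 was 0.0031 at week 2. With arrays centred on their medians Slfn5 was 0.036 at week 9. With averaged probe sets, Slfn3 was −0.019 and Slfn5 0.22 at week 9, and against week 1 Slfn3 was 0.016 at week 2 and −0.093 at week 7, and Slfn5 was 0.15, 0.069 and 0.20 at weeks 2, 3 and 7. Without single arrays, differences from untreated ran from −0.036 to 0.25 for Slfn8 at week 2, −0.033 to 0.19 for Slfn3 and −0.027 to 0.23 for Slfn5 at week 5, −0.012 to 0.22 for Slfn3 and −0.10 to 0.15 for Slfn5 at week 9, and, for Slfn9, −0.14 to 0.047 at week 1, −0.090 to 0.074 at week 2, −0.15 to 0.025 at week 3 and −0.15 to 0.017 at week 5. Against week 1 they ran from −0.25 to 0.050 for Slfn2 at week 2, −0.14 to 0.083 for Slfn3 at week 2 and −0.15 to 0.061 at week 3, −0.33 to 0.023 for Slfn8 at week 7, and, for Slfn9, −0.070 to 0.12 at week 2, −0.12 to 0.068 at week 3, −0.13 to 0.060 at week 5 and −0.18 to 0.0091 at week 9. The cause of these changes was not tested. Slfn1 at weeks 7 and 9 stood above untreated under every alternative fit and with any array left out, except by the exact test.

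With the replicate number as a block, the counts stayed at 0, 0, 1, 2, 2 and 2 against untreated and at 0, 0, 0, 1 and 1 against week 1, and no call changed. The numbers do not pair the mice: deviations of arrays with the same number correlated at a mean of −0.0033 over 93 pairs, and 10 arrays had their best partner under their own number.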
